A study of Mus musculus with 6 samples.

Results

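The inhibitory checkpoint receptors are cell surface proteins that restrain T cell activation. 10 genes of this kind were followed, *Ctla4*, *Pdcd1*, *Lag3*, *Tigit*, *Havcr2*, *Btla*, *Cd160*, *Vsir*, *Cd200* and *Cd96*, out of 45777 genes in the tables. They were chosen by name, with earlier results of these data known. The counts of all their transcripts were added per gene symbol, and CD4+Lrig1+ T cells were compared with CD4+Lrig1- T cells within each table. Lrig1 is a transmembrane protein of the leucine-rich repeat and immunoglobulin-like domain family that the study follows as a surface marker of regulatory T (Treg) cells. Both groups were CD4+ T cells sorted by flow cytometry, with or without Lrig1 on the surface, from the spleens of C57BL/6 female mice, an inbred strain, aged 7 weeks. The labels name no altered allele and no treatment in either group. Neither group is a pure cell type, since the sort used only these surface proteins. The labels list 6 samples, 3 per group, and 4 libraries were analysed here, 1 of each group in each of 2 tables (set 1 and set 2). The study describes its quantitative data in general as coming from biologically independent samples or experiments, and the labels tie no library to an animal, so p-values measure the spread between these libraries.

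Most of these receptors carry short tyrosine motifs in their tails that recruit the phosphatases SHP-1 and SHP-2, or compete with a stimulating receptor for a shared ligand. CTLA-4 takes CD80 and CD86 from the costimulatory receptor CD28 and is present at high levels in Treg cells. PD-1, LAG-3, TIGIT and TIM-3 (the products of *Pdcd1*, *Lag3*, *Tigit* and *Havcr2*) appear on T cells after stimulation and mark follicular helper, regulatory and exhausted cells in different combinations, whereas BTLA and VISTA (*Vsir*) are also carried by resting T cells.

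The libraries held 44865070 to 59977951 estimated counts. All 10 receptor genes passed edgeR's filter on low counts, as did 16123 genes in all. Levels are given as CPM, counts scaled to a common library size after TMM normalization, and differences as log2 fold changes, positive where CD4+Lrig1+ cells were higher. Libraries differed more between sets (r of log2 CPM across genes 0.908 within each group) than between groups within a set (0.960 and 0.959), and genes are not independent replicates. The ratio in each set is therefore given beside the fit over all libraries, and a second fit held the table as a term. *Lrig1* had a log2 fold change of 1.64 and *Foxp3*, the lineage factor of Treg cells, had 589 and 615 CPM in CD4+Lrig1+ against 48.9 and 30.7 in CD4+Lrig1- libraries. T cell markers (8 of 8 detected in each library) summed to 4180 and 6120 CPM in CD4+Lrig1+ and to 4100 and 6270 in CD4+Lrig1- libraries. Treg markers (6 genes) summed to 2080 to 2120 against 160 to 215 CPM, follicular helper markers (6) to 250 to 471 against 83.6 to 204, and naive T markers (6) to 2810 to 3720 against 4430 to 6640. In bulk RNA, fewer cells of a type and less RNA per cell cannot be told apart.

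*Ctla4* showed the largest difference of the 10. It had 301 CPM in the CD4+Lrig1+ and 31.3 in the CD4+Lrig1- library of set 1, and 211 against 16.9 in set 2. The ranges did not overlap and the ratio was 9.59-fold in set 1 and 12.4-fold in set 2. In CPM, unlike the other receptors with large differences, *Ctla4* was lower in set 2 than in set 1 in both groups. This depends on the scale. In TPM, the authors' values per transcript length, *Cd200* was also lower in set 2, at 66.5 against 74.2 in CD4+Lrig1+ and 13.5 against 16.9 in CD4+Lrig1- libraries. So was *Havcr2*, at 0.81 against 0.98 and 2.03 against 5.32. The log2 fold change was 3.41 (SE 0.50), with an adjusted p of 0.517 from edgeR's quasi-likelihood test over all genes and 4.8e-06 with the table as a term. It was 3.03 to 3.96 when each library in turn was left out, which leaves a group with a lone library. The gene (ID 12477) lies on chr1:60909025-60915832 of GRCm38.

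*Pdcd1*, whose product PD-1 recruits SHP-2 to stimulated antigen receptors, had 83.3 against 9.04 CPM in set 1 and 170 against 18.0 in set 2. The groups did not overlap, and although the level was higher in set 2 in both groups, the ratio was 9.17-fold in set 1 and 9.44-fold in set 2. Its log2 fold change was 3.23 (SE 0.61) with an adjusted p of 0.612, and 3.79e-06 with the table as a term (edgeR). *Pdcd1* (ID 18566) is on chromosome 1 from 94038305 to 94052553.

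*Lag3*, a relative of CD4 that binds MHC class II, had 47.5 against 6.29 CPM in set 1 and 121 against 15.6 in set 2. The groups did not overlap, and the ratio was 7.51-fold and 7.74-fold. The log2 fold change was 2.94 (SE 0.75), with an adjusted p of 0.674 and, with the table as a term, 4.8e-06 (edgeR). The gene (ID 16768) lies on chromosome 6 from 124904359 to 124912434.

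*Tigit*, a receptor for CD155 that competes with the activating receptor CD226, had 109 against 17.4 CPM in set 1 and 241.0 against 27.2 in set 2. The ratio of 6.26-fold in set 1 and 8.85-fold in set 2 came again with no overlap between the groups. The log2 fold change was 2.97 (SE 0.57), with an adjusted p of 0.626, and 1.28e-05 with the table as a term (edgeR). *Tigit* (ID 100043314) lies on chromosome 16 from 43626137 to 43665125.

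*Cd200* is a surface glycoprotein and the ligand of the inhibitory receptor CD200R, so it delivers rather than receives the signal. It had 68.7 against 15.3 CPM in set 1 and 101 against 22.1 in set 2, ratios of 4.49-fold and 4.54-fold without overlap. The log2 fold change was 2.18 (SE 0.39), with an adjusted p of 0.58, and 9.01e-06 with the table as a term (edgeR). B cells also carry CD200 and BTLA. B cell markers (10 genes) summed to 98.3 against 78.5 CPM in set 1 and to 391 against 775 in set 2, with none at 0. Of the 10, 7 were lower in CD4+Lrig1+ libraries in both sets and 0 were higher in both, against 41.3% and 36.5% of all genes. The part of B cells in these values was not tested. *Cd200* (ID 17470) lies on chromosome 16 from 45382111 to 45409060.

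**Figure D1:**
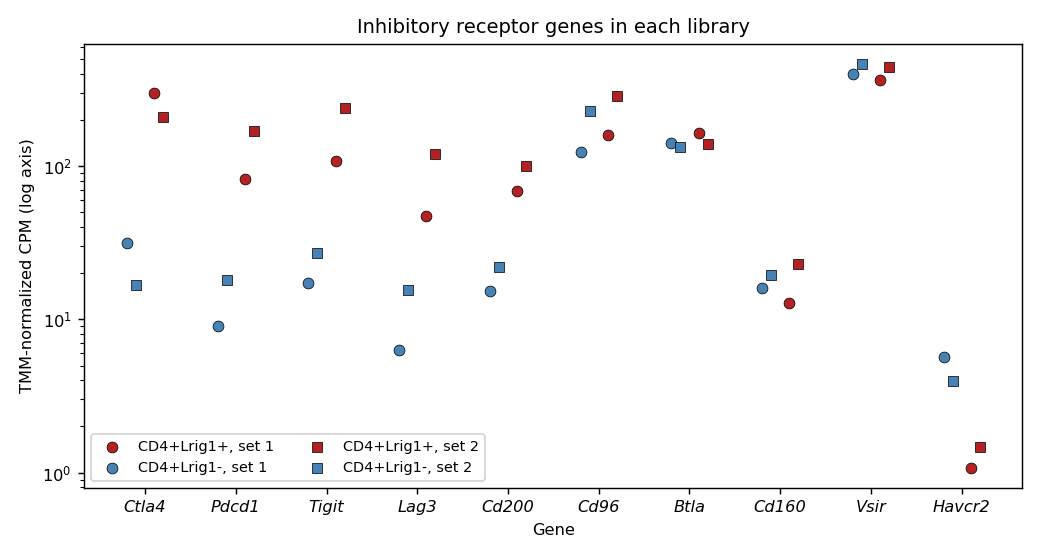
TMM-normalized CPM (log axis) of the 10 inhibitory receptor genes in each of the 4 libraries, with CD4+Lrig1+ in red, CD4+Lrig1- in blue, set 1 as circles and set 2 as squares. For *Ctla4*, *Pdcd1*, *Tigit*, *Lag3* and *Cd200* both red points lie above both blue points, for *Havcr2* both lie below, and for the other 4 genes they overlap.

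*Havcr2*, which encodes TIM-3 of effector T cells, NK cells and dendritic cells, was the receptor whose CD4+Lrig1+ libraries lay below the others without overlap. It had 1.08 against 5.66 CPM in set 1 (56 and 271 counts) and 1.46 against 3.94 in set 2 (84 and 213 counts). It was 5.11-fold lower in set 1 and 2.65-fold lower in set 2. The log2 fold change was -1.92 (SE 0.52), with an adjusted p of 0.688, and 0.00384 with the table as a term (edgeR). With limma on log2(FPKM + 1), which compresses low values, the estimate was smallest in size at -0.85. Dendritic cell markers (6 genes) summed to 18.7 to 19.2 CPM in CD4+Lrig1+ and to 51.7 to 66.2 in CD4+Lrig1- libraries, and NK markers (8 genes) to 34.7 to 90.1 against 95.3 to 242. Of the dendritic cell markers, 5 were lower in CD4+Lrig1+ libraries in both sets, against 41.3% of all genes. The other, *Xcr1*, was higher in both, at 0.923 and 1.41 CPM against 0.251 and 0.833. Myeloid markers (8 genes) summed to 40.0 to 175 against 43.2 to 179, but single genes went both ways. In both sets 3 were higher and 2 lower, against 36.5% and 41.3% of all genes. *Csf1r* had log2 ratios of 1.05 and 1.03, and *Itgam* had -1.21 and -1.70. Innate-like T markers (4) summed to 11.9 to 14.4 against 32.8 to 38.4. No gene of these lists was at 0 in any library, and their part in the result was not tested. *Havcr2* (ID 171285) lies on chromosome 11 from 46454931 to 46481255.

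In the other 4 receptor genes the libraries of the groups overlapped. *Cd96*, a CD155 receptor of T and NK cells, had 160 against 124 CPM in set 1 and 287 against 230 in set 2, a ratio of 1.28-fold and 1.24-fold that was smaller than the difference between the sets. Its log2 fold change was 0.33 (SE 0.52), with an adjusted p of 1.00, and 0.0155 with the table as a term (edgeR). Without the CD4+Lrig1+ library of set 2 it was -0.16. *Btla*, a receptor for HVEM (*Tnfrsf14*), had 165 against 142 CPM in set 1 and 141 against 134 in set 2. This is a log2 ratio of 0.21 and 0.07, and the adjusted p was 1.00, or 0.214 with the table as a term (edgeR).

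*Cd160*, another HVEM receptor that NK and some T cells carry, had 12.9 against 16.02 CPM in set 1 and 23.1 against 19.5 in set 2. Its log2 ratio changed sign between the sets, from -0.31 to 0.24, as it did for 3590 of the genes tested (22.3%). The NK markers above and the CD8 markers (2 genes, 14.1 to 51.6 against 19.5 to 97.3 CPM) were lower in the CD4+Lrig1+ library in both sets, and their part in this result was not tested. *Vsir*, which encodes VISTA, the receptor with the highest CPM, had 367 against 401 in set 1 and 442 against 465 in set 2. Its log2 ratio was -0.13 and -0.07, and on plain library totals that of set 2 was 0.03. The adjusted p from edgeR was 1.00 for both genes, and 0.914 for *Cd160* and 0.442 for *Vsir* with the table as a term. The genes lie on chromosome 16 from 46035652 to 46120248 (*Cd96*, ID 84544) and from 45223705 to 45252895 (*Btla*, ID 208154), on chromosome 3 from 96798763 to 96829351 (*Cd160*, ID 54215) and on chromosome 10 from 60346851 to 60430294 (*Vsir*, ID 74048).

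Counted together, 0 of the 10 receptor genes passed an adjusted p of 0.05 in edgeR's quasi-likelihood test, as did 0 of the 16123 genes tested (0% in each direction, smallest adjusted p 0.501). At an unadjusted p under 0.05, 5 receptors were higher (674 of all genes, 4.18%) and 1 was lower (227, 1.41%). The DESeq2 Wald test called 5 receptors higher (*Ctla4*, *Pdcd1*, *Lag3*, *Tigit* and *Cd200*, against 1.61% of all genes) and none lower (0.31%), and edgeR's exact test called the same 5 higher (1.11% of all genes) and none lower (0.0868%). With the table as a term, 6 were higher (14.6% of all genes) and *Havcr2* was lower (12.8%). That fit leaves 1 residual degree of freedom. The groups did not overlap with CD4+Lrig1+ above for 5 receptors (14.3% of all genes) and with CD4+Lrig1+ below for 1 (11.8%). At least 2-fold in both sets, 5 were higher (7.37%) and 1 lower (3.01%). The median log2 fold change of the 10 was 1.25, against -0.04 over all genes, and it was 1.26 in set 1 and 1.25 in set 2 against 0.01 and -0.06 over all genes. With 2 libraries against 2, the smallest p of an exact two-sided permutation test of a single gene is 0.333. The receptors were chosen with earlier results of these data known, so their counts beside the shares of all genes are descriptions.

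**Figure D2:**
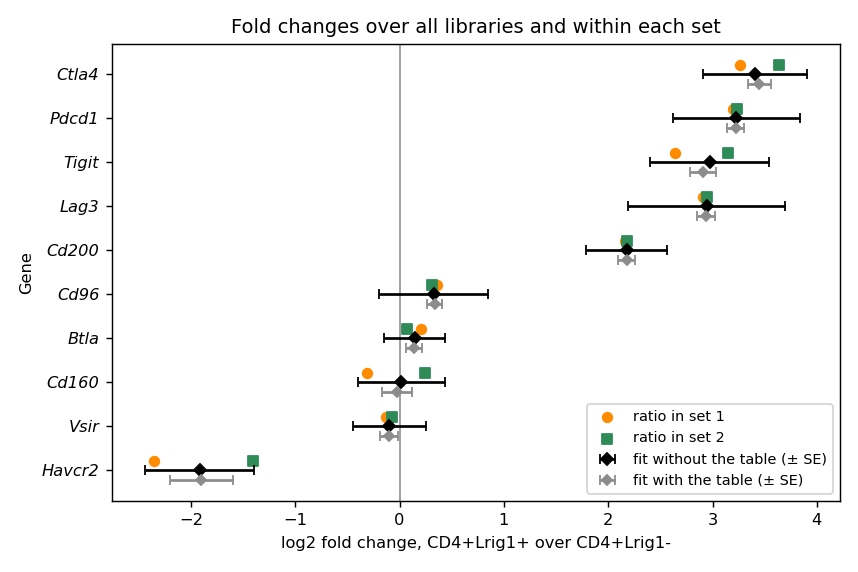
Log2 fold change of each receptor gene, with CD4+Lrig1+ cells as the numerator. Orange circles and green squares are the ratios within set 1 and set 2, black diamonds the fit over all 4 libraries and grey diamonds the fit with the table as a term, each with its SE. The ratios of *Pdcd1*, *Lag3* and *Cd200* nearly coincide in the sets, and those of *Havcr2* range from -2.35 to -1.41.

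To compare the genes with one another, levels were taken as TPM, the authors' values per transcript length, summed per gene. In CD4+Lrig1- cells the receptor mRNA was mainly *Vsir* (174 ± 54.4 TPM, mean ± SD, n = 2), *Cd96* (148 ± 1.97) and *Btla* (82.3 ± 36.7). The ranges of *Vsir* and *Cd96* overlapped, and the next gene, *Ctla4*, was at 27.6 ± 21.3. *Cd200* (15.2 ± 2.43), *Cd160* (13.6 ± 3.81) and *Pdcd1* (12.6 ± 0.77) followed, each overlapping the gene above it. *Lag3* (9.13 ± 2.12), *Tigit* (6.10 ± 0.86) and *Havcr2* (3.68 ± 2.32) were the lowest, each apart from the gene above it. The place of *Tigit* rests on how StringTie divided its counts, since the predicted XM_017316834 of 24855 bases took 86.5% to 91.6% of them but 19.8% to 29.8% of the length-scaled level (FPKM), and the curated NM_001146325 has 963 bases.

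In CD4+Lrig1+ cells *Ctla4* stood first in the order with 282 ± 161 TPM (SD, n = 2), but its range (168 and 396) overlapped that of *Cd96* (194 ± 12.02), which overlapped *Vsir* (164 ± 35.2). *Pdcd1* (121 ± 18.8), *Btla* (92.7 ± 40.5), *Lag3* (74.3 ± 23.4) and *Cd200* (70.4 ± 5.49) came next, *Pdcd1* apart from *Vsir* and the others each overlapping the gene above. *Tigit* (55.6 ± 12.5), *Cd160* (13.4 ± 0.86) and *Havcr2* (0.90 ± 0.12) were each apart from the gene above. *Pdcd1* was thus at rank 4 in CD4+Lrig1+ and at rank 7 in CD4+Lrig1- cells, and *Havcr2* was the lowest of the 10 in both.

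The summed TPM of the 10 genes was 1192 in CD4+Lrig1+ and 574 in CD4+Lrig1- cells of set 1, and 944 and 411 in set 2. *Ctla4* made up 33.2% and 17.8% of that sum in the CD4+Lrig1+ libraries of set 1 and set 2, and 7.43% and 3.06% in the CD4+Lrig1- libraries. *Vsir* made up 15.9% and 14.8% against 37.0% and 32.9%. These shares are ratios within a library, and the lower share of *Vsir* came with CPM that overlapped between the groups.

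**Figure D3:**
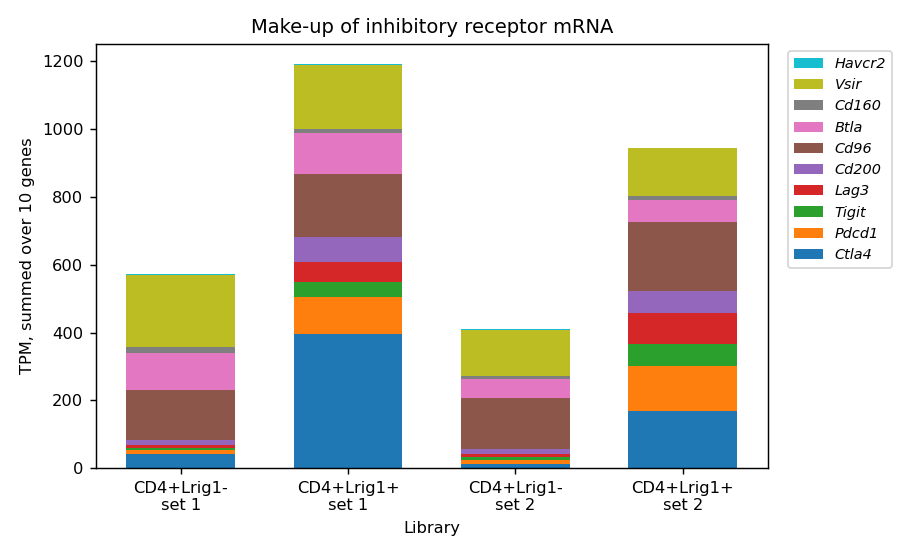
TPM of the 10 receptor genes stacked in each library, with CD4+Lrig1- beside CD4+Lrig1+ of the same set. The sum is 1192 against 574 in set 1 and 944 against 411 in set 2, and *Ctla4* (bottom) holds the largest share in the CD4+Lrig1+ library of set 1, *Cd96* in that of set 2.

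Several of these receptors share a ligand with an activating receptor, and the balance of the pair was read as a ratio of TPM. *Ctla4* over *Cd28* was 1.81 in CD4+Lrig1+ and 0.222 in CD4+Lrig1- cells of set 1, and 1.10 and 0.094 in set 2, so *Ctla4* exceeded *Cd28* per length only in the CD4+Lrig1+ libraries. *Cd28* itself had log2 ratios of 0.22 and 0.08. *Tigit* over *Cd226* was 0.754 against 0.0744 in set 1 and 1.64 against 0.153 in set 2, with log2 ratios of -0.07 and -0.26 for *Cd226*. *Cd96* over *Cd226* was 2.98 against 1.99 and 5.14 against 3.42, a 1.5-fold higher ratio in CD4+Lrig1+ cells in both sets. *Lag3* over *Cd4* was 0.0767 against 0.0097 and 0.173 against 0.0212. Neither *Cd28* nor *Cd226* passed with the table as a term (adjusted p 0.246 and 0.166, edgeR), while *Icos*, a stimulating relative of CD28, had log2 ratios of 1.10 and 1.44 (adjusted p 0.685, and 1.37e-04 with the table as a term). *Tnfsf14*, which encodes LIGHT, a stimulating ligand of HVEM, had log2 ratios of 0.55 and 0.93 (0.996 and 0.00372).

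Of 17 genes for ligands and partners of the receptors, 14 passed the filter on low counts, and their median log2 fold change was 0.00. None passed edgeR's test without the table term. With it, 6 were higher and 2 lower, where 14.6% and 12.8% of all genes passed. The ligands of CTLA-4 were both higher, *Cd80* at 6.52 and 6.70 CPM in CD4+Lrig1+ against 2.38 and 1.69 in CD4+Lrig1- libraries and *Cd86* at 19.5 and 29.98 against 5.97 and 12.1. Of the PD-1 ligands, *Pdcd1lg2* (PD-L2) had 21.1 and 26.2 CPM against 4.99 and 5.59, and *Cd274* (PD-L1) had 83.3 and 58.6 against 51.5 and 39.4. The range of *Pdcd1* over *Cd274* in TPM was 1.89 to 5.47 in CD4+Lrig1+ and 0.332 to 0.859 in CD4+Lrig1- cells. B cells and dendritic cells also express *Cd80*, *Cd86* and the PD-1 ligands, and the marker sums of those cells are given above. Their part in these values was not tested.

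*Pvr*, which encodes CD155, the ligand of TIGIT and CD96, ran the other way, at 45.5 and 29.4 CPM in CD4+Lrig1+ against 64.8 and 53.3 in CD4+Lrig1- libraries (log2 ratios -0.51 and -0.86, adjusted p 0.00288 with the table as a term, edgeR). *Nectin2*, a further ligand of TIGIT, had only 78 and 105 counts against 0 and 9. *Cd200r1*, the receptor for CD200, had log2 ratios of 0.59 and 0.57, *Selplg*, which VISTA binds, had -0.26 and -0.39, and *Tnfrsf14*, the partner of BTLA and CD160, had -0.20 and -0.07. *Btla* over *Tnfrsf14* in TPM was 1.26 against 0.932 in set 1 and 2.27 against 2.07 in set 2, and *Cd160* over *Tnfrsf14* was 0.133 against 0.141 and 0.497 against 0.402. The TIM-3 and LAG-3 ligands *Lgals9*, *Hmgb1*, *Ceacam1* and *Lgals3* did not pass in either fit, nor did *Nectin1*, a CD96 ligand (log2 ratios -0.88 and -0.07), and *Fgl1*, a LAG-3 ligand of the liver, and *Igsf11*, a VISTA ligand, were at 0 counts in each library.

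**Figure D4:**
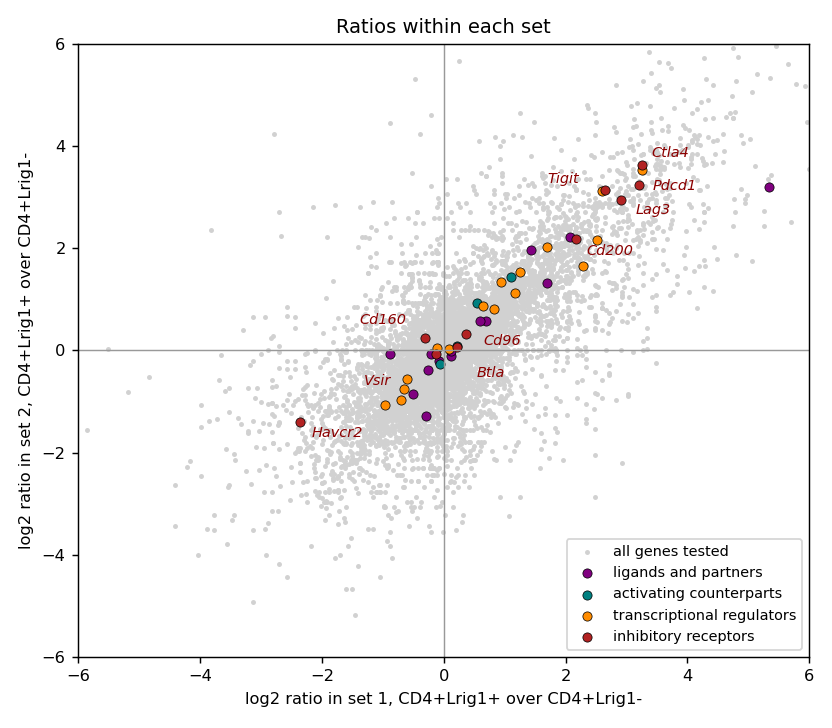
Log2 ratio between the groups, positive where CD4+Lrig1+ was higher, in set 1 (horizontal) and set 2 (vertical) for the 16123 genes tested (grey, 27 of them outside the axes), with the receptors in red, their ligands and partners in purple, the activating counterparts in green and transcriptional regulators in orange. *Ctla4*, *Pdcd1*, *Tigit*, *Lag3* and *Cd200* lie at ratios above 2 in both sets and *Havcr2* below -1.

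Among signalling proteins that act below these receptors, 4 of 12 genes passed as higher with the table as a term and 0 as lower (14.6% and 12.8% of all genes), and none passed without it (median log2 fold change 0.10). *Ptpn11*, the gene of SHP-2 that PD-1 and BTLA recruit, had log2 ratios of 0.78 and 0.77, whereas *Ptpn6*, the gene of SHP-1, had -0.13 and -0.23. *Sh2d1a* (SAP), *Fyn* and *Dok1* were the other 3. Of 8 genes for CTLA-4 transport and for shedding of receptors, 1 was lower and 0 higher with the table as a term, a share near the 12.8% of all genes that were lower in that fit. It was *Trat1*, an adaptor of CTLA-4 transport to the surface (log2 ratios -0.58 and -0.72). *Lrba*, which protects CTLA-4 from degradation, had 0.26 and 0.04, and *Adam10* and *Adam17*, the proteases that cut LAG-3, had 0.22 and 0.15, and 0.04 and -0.03.

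Of 11 genes for other inhibitory surface proteins, 5 were higher and 3 lower with the table as a term, against 14.6% and 12.8% of all genes (median log2 fold change 0.39). The higher ones were *Cd5*, *Cd101*, *Klrg1*, *Entpd1* (CD39, which breaks down ATP) and *Adora2a*, the adenosine receptor, at log2 ratios of 1.90 and 1.58 for *Entpd1* and 1.08 and 1.006 for *Adora2a*. The lower ones were *Cd244a* (-1.85 and -1.58), *Lair1* (-1.49 and -1.70) and *Siglecg* (-1.12 and -1.27), receptors that NK, myeloid and B cells express. Among 16 transcription factors of stimulated, exhausted or resting T cells, 10 were higher and 4 lower with the table as a term, against 14.6% and 12.8% of all genes, and none passed without it (median log2 fold change 0.95). *Tox2* had 45.4 CPM in both CD4+Lrig1+ libraries against 4.74 and 3.91, *Nr4a2* had 16.4 and 6.55 against 2.67 and 0.72, and *Eomes* had 24.1 and 41.3 against 4.198 and 9.18. *Irf4*, *Maf*, *Batf* and *Tox* were at least 2-fold higher in both sets, and *Nr4a1*, *Nr4a3* and *Nfatc1* were the other 3. *Tcf7* (-0.65 and -0.76), *Bach2*, *Tbx21* and *Id2* were the 4 lower genes.

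StringTie split the counts of a gene among its transcripts, and for *Ctla4* the split differed with Lrig1. The curated transcript NM_009843 has 4 exons and encodes the membrane receptor. NM_001281976 lacks exon 3, which encodes the membrane-spanning part, and corresponds to the known soluble form of CTLA-4. Exon 3 is 110 bases long (chr1:60913219-60913328 of GRCm38, plus strand, GENCODE M21). It is shown because its presence tells the transcripts apart, in capitals between the last 20 bases of exon 2 and the first 20 of exon 4.
*Ctla4* exon 3: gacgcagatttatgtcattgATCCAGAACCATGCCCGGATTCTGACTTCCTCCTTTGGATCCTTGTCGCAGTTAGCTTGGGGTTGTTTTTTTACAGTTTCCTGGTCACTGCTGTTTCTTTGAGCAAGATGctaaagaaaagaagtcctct
The transcript without these 110 bases held 31.6% of the *Ctla4* counts in the CD4+Lrig1+ and 41.7% in the CD4+Lrig1- library of set 1, and 15.6% and 35.5% in set 2. Exact (Clopper-Pearson) 95% intervals were 30.9% to 32.4%, 39.2% to 44.2%, 15.0% to 16.3% and 32.4% to 38.7%, and they cover counting error only, not the error of assigning reads to transcripts. The share was 23.6% ± 11.3 (SD, n = 2) in CD4+Lrig1+ cells, against 38.6% ± 4.34 in those without Lrig1. It was lower in the CD4+Lrig1+ library of each set, the ranges did not overlap, and 2 libraries a group allow no exact p below 0.333. Both transcripts were higher in CD4+Lrig1+ cells, the full-length one at log2 ratios of 3.49 and 4.02 and the one without exon 3 at 2.86 and 2.45.

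The 2 transcripts of *Cd96* moved apart as well. The predicted XM_017317168 held 19.3% of the *Cd96* counts in CD4+Lrig1+ and 3.30% in CD4+Lrig1- cells of set 1, and 12.1% and 6.26% in set 2. Its log2 ratio was 2.90 and 1.26, against 0.10 and 0.22 for the curated NM_032465, which held the rest. The predicted transcript of *Lag3* moved the other way. This non-coding transcript, XR_377427, took 7.10% ± 2.50 (SD, n = 2) of the counts with Lrig1 and 15.4% ± 5.002 without it. Its log2 ratios were 1.79 and 1.78, against 3.08 and 3.05 for NM_008479. For *Tigit* the predicted XM_017316834 took 86.6% ± 0.23 and 89.0% ± 3.62 of the counts, and the curated NM_001146325 alone had log2 ratios of 3.26 and 3.13. The shares of the transcripts of *Btla*, *Cd200*, *Cd160* and *Vsir* differed by less than 10 percentage points between the groups in each set. So did those of *Tigit* in each set, and those of *Cd96* (5.80 points) and *Lag3* (6.53 points) in set 2. For *Btla*, the share of XM_006521907 was 6.85 and 3.85 points higher in CD4+Lrig1+ cells. *Pdcd1* and *Havcr2* each had a single transcript in the tables. Predicted transcripts rest on annotation, and short reads divide shared exons among them by estimate.

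**Figure D5:**
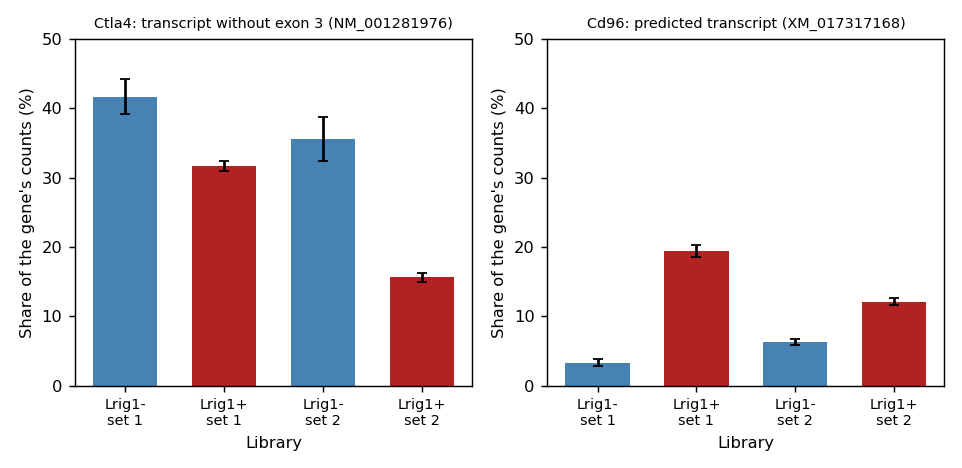
Share of the counts of *Ctla4* given to the transcript without exon 3 (left) and of *Cd96* given to its predicted transcript (right), in percent, for each library (bars, CD4+Lrig1- in blue and CD4+Lrig1+ in red) with exact 95% intervals for counting error. The *Ctla4* share is lower and the *Cd96* share higher in the CD4+Lrig1+ library of each set.

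Promoters were read from RefSeq (GRCm38.p6) as 250 bases before to 50 after an annotated transcript start, and 9 of the 10 receptor genes had an entry. *Cd160* had 2 windows. The starts used for *Tigit* (43664184, that of NM_001146325), *Btla* (45224337) and *Cd200* (45409053) lie inside the gene spans given above, as does 96814521 for *Cd160*. 5 motifs were searched on both strands, the NFAT core GGAAAA, the AP-1 site TGANTCA, the Runx site TGTGGT, the forkhead site TGTTTAC and the Creb site TGACGTCA, each counted on its own where matches could overlap. The NFAT core was found in 2 of the 9 genes, *Ctla4* and *Tigit* (23.4% of 32851 promoters). The Runx site was found in 5, *Tigit*, *Havcr2*, *Btla*, *Cd160* and *Cd96* (16.8% of promoters) and the AP-1 site in *Havcr2* (7.81%). The forkhead and Creb sites were in no window of the 9 genes (3.65% and 1.79% of promoters), which says only that these letters are not there. The genes with the Runx site include *Tigit* among the higher, *Havcr2* among the lower and 3 of the receptors whose groups overlapped, so the match did not sort them by direction. The 250 bases before the start are shown for *Ctla4* and *Tigit*, which were higher in CD4+Lrig1+ cells and hold an NFAT core, and for *Havcr2*, which was lower and holds an AP-1 site, with all matches in capitals on the strand of the gene. *Ctla4* is at chr1:60908775-60909024 (plus strand), *Tigit* at chr16:43664185-43664434 (minus strand) and *Havcr2* at chr11:46454681-46454930 (plus strand).
*Ctla4* promoter: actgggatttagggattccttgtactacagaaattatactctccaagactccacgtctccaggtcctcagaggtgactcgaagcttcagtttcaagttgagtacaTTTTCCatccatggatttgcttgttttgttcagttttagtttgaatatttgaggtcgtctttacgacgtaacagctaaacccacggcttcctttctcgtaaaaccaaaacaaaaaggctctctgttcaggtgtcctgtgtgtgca
*Tigit* promoter: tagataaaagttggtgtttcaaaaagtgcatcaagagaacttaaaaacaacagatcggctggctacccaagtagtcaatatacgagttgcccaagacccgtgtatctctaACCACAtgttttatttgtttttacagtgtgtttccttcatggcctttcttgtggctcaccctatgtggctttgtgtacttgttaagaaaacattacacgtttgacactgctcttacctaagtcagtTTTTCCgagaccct
*Havcr2* promoter: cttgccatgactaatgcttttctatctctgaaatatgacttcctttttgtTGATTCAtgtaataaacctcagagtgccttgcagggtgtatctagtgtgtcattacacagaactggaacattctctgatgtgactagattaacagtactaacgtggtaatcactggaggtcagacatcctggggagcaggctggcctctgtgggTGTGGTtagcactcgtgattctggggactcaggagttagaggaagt

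4 of the receptor genes, *Tigit*, *Btla*, *Cd200* and *Cd96*, lie within 2.49 Mb of chromosome 16 (from 43626137 to 46120248). Of the other 23 genes tested in this interval, 7 were higher and 13 lower in CD4+Lrig1+ cells in both sets, with median log2 ratios of -0.09 and -0.16, against 36.5% and 41.3% of all genes. With the table as a term 5 were higher and 7 lower, against 14.6% and 12.8% of all genes. 2 were at least 2-fold higher in both sets (7.37% of all genes), *Boc* and *Ccdc80*, at mean levels of only 0.319 and 0.786 CPM. *Cd200r3* was at least 2-fold lower in both sets (3.01% of all genes), with log2 ratios of -1.35 and -1.82 and a mean of 2.42 CPM. Between *Tigit* and *Cd200* lies *Btla*, whose levels overlapped, so neighbouring receptor genes differed in their ratios.

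The genes with the pattern most like each receptor were found among 8831 genes with a mean of at least 10 CPM, as the smallest Euclidean distance between centred log2 CPM over the 4 libraries. For *Ctla4* these were *Spry1*, an inhibitor of receptor tyrosine kinase signalling (distance 0.294), *Map6* (0.356) and *Tiam1* (0.445). For *Pdcd1* they were *Prnp* (0.047), *Cebpa* (0.137) and *Tigit* (0.411), and for *Tigit* they were *Cebpa* (0.397), *Pdcd1* (0.411) and *Prnp* (0.438). *Lag3* was nearest to *Cst7* (0.157), which encodes an inhibitor of cathepsins, then to *Prnp* (0.422) and *Pdcd1* (0.431). *Pdcd1*, *Lag3* and *Tigit* thus fell near each other and apart from *Ctla4*, whose level was higher in set 1 where theirs were higher in set 2. *Cd200* was nearest to *Casp4* (0.188), *Rilpl2* (0.226) and *Izumo1r*, the folate receptor 4 gene of Treg and anergic cells (0.283). *Havcr2* was nearest to *Itgax*, which encodes CD11c of dendritic cells (0.280), with log2 ratios of -2.73 and -1.47 against -2.35 and -1.41 for *Havcr2*. Next to it came *Nedd4* (0.536, log2 ratios -1.695 and -1.766) and *App* (0.546, -1.63 and -1.569). The nearest genes of the receptors whose groups overlapped were *Cers5*, *Thap3* and *Gys1* for *Btla*, *Ndrg1*, *Eif2b3* and *Gtf2h4* for *Cd160*, *Traf3ip2*, *Nudt3* and 2810004N23Rik for *Vsir* and *Ybx1*, *Psme1* and *Dhrs1* for *Cd96*. On the log2 FPKM scale 15 of the 30 nearest genes were the same. With 4 libraries many genes can follow 1 pattern, and the distances are descriptions.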

How the data were processed

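RNA of splenic CD4+ T cells sorted by Lrig1 was sequenced as 2 x 50 base paired ends from stranded mRNA libraries. By the study's methods and the submitters' processing notes, the authors trimmed reads with Trimmomatic 0.38, mapped them with HISAT2 2.1.0 to GRCm38 (mm10) and assembled them with StringTie 2.1.3b. The deposited estimated counts are not normalized, and the deposited FPKM and TPM values are scaled by the authors to transcript length and library. They are given for 129299 RefSeq transcripts. Among transcripts of 1 to 50 counts, 98.2% to 98.7% per library equalled FPKM times length times a constant, rounded up, so the counts are estimates.

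A table with 6 columns of sample values whose names give no group was not used here. Gene IDs matched RefSeq genes of GRCm38.p6 for 45675 genes, 96.4% with identical coordinates, as for all 10 receptors. Whole-number counts were summed per gene symbol, filtered by filterByExpr, scaled by TMM and tested with the quasi-likelihood test of edgeR 4.0.16 (R 4.3.3) at a Benjamini-Hochberg adjusted p under 0.05 over all genes. For the ratio in each set 2 counts were added (prior count). Columns carry no replicate number. The table was taken as the unit shared by libraries, since deviations of the libraries of a set from their group means correlated (r = 0.883). Alternatives were DESeq2 1.42.0, limma 3.58.1 with a pseudocount of 1 or 0.1 on log2 FPKM, other filters and scalings, and leaving out libraries. The edgeR fits were also run on simulated counts with known changes. For the fit without the table term these counts held no difference between sets, unlike the libraries here. That run therefore does not show how the fit performs on these data. Files were read with Python 3.11.15.

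The receptors and all gene lists were chosen with earlier results of these data known. Genes named are the receptors, list members with a log2 ratio of at least 1 in size and 1 sign in both sets or that partner a receptor, and the 3 genes most like each receptor. Other list members that passed with the table as a term, *Xcr1*, *Boc*, *Ccdc80* and *Cd200r3* were named after their values were seen.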

Additional observations from a re-analysis of the deposited data

How the results depend on the processing

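Without the table term no receptor passed an adjusted p of 0.05 with TMM or DESeq2 size factors, with other filters on low counts, or with limma on FPKM. The DESeq2 Wald test and edgeR's exact test each called 5 receptors, and 310 and 193 of all genes. Leaving out each library in turn, edgeR called 0 to 1 receptor and 2 to 90 genes. The 1 was *Ctla4*, without the CD4+Lrig1- library of set 1 (adjusted p 0.0466, 90 genes) or the CD4+Lrig1+ library of set 2 (0.0348, 41 genes), where the lone library of a group is assumed to vary like the others. With the replicate block, the table as a term, 7 receptors and 4414 genes passed, also when counts were summed by gene ID. 7 receptors also passed in the block with DESeq2 size factors (4596 genes), in the DESeq2 Wald test (3817) and with at least 10 counts in every library (5284). Pairing of libraries by table is not stated in the labels.

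*Ctla4*, *Pdcd1*, *Lag3*, *Tigit*, *Cd200*, *Havcr2* and *Btla* kept their direction in all of these settings. *Cd160* had log2 fold changes of -0.47 to 0.41 when a library was left out, and with the replicate block of -0.0278 (also by gene ID), -0.0475 with DESeq2 size factors, -0.0542 in the DESeq2 Wald test and -0.0142 with at least 10 counts. *Vsir* ranged from -0.24 to 0.0645 (0.0188 when the set 2 library without Lrig1 was the one removed) and *Cd96* from -0.16 to 0.85 when a library was left out. The cause of these changes was not tested. *Havcr2* rests on 56 to 271 counts a library, the fewest of the 10.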
